A study of Mus musculus with 12 samples.

Results

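The 10 genes described here encode the transcription factor NRF2 (Nfe2l2), its inhibitor KEAP1 (Keap1) and 8 further genes of the antioxidant response: Slc7a11, Gclc, Gclm, G6pdx, Nqo1, Srxn1, Txnrd1 and Osgin1. They were chosen by symbol. All 10 were found among the 32047 genes of the count table, and all 10 passed the filter on low counts in each comparison. They were followed in 12 kidney libraries of mice, in 3 groups of 4. The variant group, AKI_FGF23_R176QR179Q (titled AKI_A_FGF23_R176QR179Q), overexpressed FGF23, a phosphate-lowering hormone made by bone, with the substitutions R176Q and R179Q, and acute kidney injury by rhabdomyolysis (breakdown of skeletal muscle, which releases myoglobin and its heme into the blood) followed 3 weeks later. AKI_mcherry (titled AKI_A_mcherry) carries the names of the injury and of the red fluorescent protein mCherry. NC is an abbreviation that the labels do not spell out, and neither do they explain the letter A in both titles. The sources used here do not give strain, age, sex, vector or the time from injury to sampling. Nothing in the labels ties libraries to separate animals, and p-values speak only to the spread among them. A group with the variant and without injury was not analysed here.

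NRF2 is held at a low level by KEAP1, an adaptor of the CUL3 ubiquitin ligase that marks it for degradation. Oxidants and electrophiles modify cysteines of KEAP1, NRF2 then escapes degradation, pairs with small MAF proteins and binds antioxidant response elements in its target genes. Among these are the genes for cystine import and glutathione synthesis, for NADPH supply, and for the reduction of quinones, thioredoxin and oxidised peroxiredoxins. In the kidney the pathway is known for its protective role in the tubule under oxidative load, and heme released in rhabdomyolysis is a source of such load. NRF2 activity is set mainly by its stability as a protein, which RNA levels do not measure.

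The antioxidant response element has the core TGACNNNGC, which was searched on both strands in the 250 bases before the start of each gene (RefSeq, build GRCm38.p6), together with the AP-1 site TGACTCA, which reads TGAGTCA on the other strand. Both motifs as searched share bases where TGACTCA is followed by GC, which did not occur in these genes. With TGAC fixed, the core search could not count TGAGTCA followed by GC. That sequence stands at the Srxn1 match nearer the start and, on the other strand, at the Osgin1 match. The search therefore does not settle whether Srxn1 and Osgin1 lack an antioxidant response element in these windows. The RefSeq table held 11 starts for 9 of the genes, all but Gclc. The core stood before 4 of the 11 starts, in Nfe2l2, Gclm, G6pdx and 1 of the 3 starts of Txnrd1. It stood in 10.2% of all 32851 promoters searched. The end of the supplied Nfe2l2 sequence was not found in an annotated transcript, unlike those of the other starts. Its start is therefore less certain. The AP-1 site stood before 2 of the 11 starts, at 2 places in Srxn1 and once in Osgin1, and before 4.46% of all promoters. In the 250 bases of Nqo1, Keap1 and Slc7a11 neither motif was found. The stretches with a match are shown, since they hold the only matches in these windows. They are written 5′ to 3′ in the direction of the gene, with the matches to either motif in capitals.
Nfe2l2, chr2:75704870-75704913, minus strand: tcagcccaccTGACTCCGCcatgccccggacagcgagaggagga
Gclm, chr3:122245398-122245456, plus strand: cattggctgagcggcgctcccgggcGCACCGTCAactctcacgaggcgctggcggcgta
Txnrd1, chr10:82859089-82859147, plus strand: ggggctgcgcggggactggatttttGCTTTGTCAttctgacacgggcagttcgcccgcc
G6pdx, chrX:74428904-74428962, minus strand: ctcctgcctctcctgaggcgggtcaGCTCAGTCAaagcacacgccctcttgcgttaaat
Srxn1, chr2:152105397-152105510, plus strand: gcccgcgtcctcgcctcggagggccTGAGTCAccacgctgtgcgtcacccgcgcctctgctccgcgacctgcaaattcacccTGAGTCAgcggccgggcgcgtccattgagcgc
Osgin1, chr8:119437025-119437081, plus strand: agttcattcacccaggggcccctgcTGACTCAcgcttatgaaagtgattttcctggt
The matches in Gclm, Txnrd1 and G6pdx stand on the other strand and read as GC, 3 bases, GTCA in the direction of the gene. The genome build of the counts is a later one, so these positions serve the sequences only.

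Library totals were 55324078 to 70638283 counts. Fgf23 itself had 320 to 517 counts per library in the variant group and 0 in all libraries of AKI_mcherry and NC. Markers of the nephron and of glomeruli and vessels were present in every group. Markers were called by edgeR at an adjusted p of 0.05. Of all genes tested, 11.7% were higher and 11.4% lower in the variant group than in AKI_mcherry. In AKI_mcherry against NC 27.2% were higher and 26.0% lower. Among 10 proximal tubule markers, 5 were higher and 1 lower in the variant group than in AKI_mcherry. All 10 of 10 were lower in AKI_mcherry than in NC. Their summed level was 3404 to 6449 CPM in the variant group, 6832 to 17675 CPM in AKI_mcherry and 34871 to 39103 CPM in NC, where CPM are counts divided by the scaled library total, on the usual scale of that unit. The lower one, Kap, carried most of that sum in AKI_mcherry, with 1028 to 2259 CPM in the variant group, 5525 to 15786 CPM in AKI_mcherry and 19086 to 23725 CPM in NC. Without Kap the other 9 summed to 2376 to 4686 CPM in the variant group, 1307 to 2116 CPM in AKI_mcherry and 13548 to 17424 CPM in NC, so that the order of the variant group and AKI_mcherry turned. The 7 markers of the thick ascending limb and distal tubule summed to 6080 to 8597 CPM in the variant group, 3667 to 3867 CPM in AKI_mcherry and 8771 to 11005 CPM in NC. The 8 neutrophil markers summed to 1.89 to 6.38 CPM in the variant group, 3.05 to 10.4 CPM in AKI_mcherry and 0.784 to 1.42 CPM in NC, with Mpo and Camp at 0 in NC. The 10 macrophage and monocyte markers summed to 109 to 155 CPM in the variant group. They summed to 115 to 269 CPM in AKI_mcherry and 145 to 204 CPM in NC. Of the 10, 1 was higher (Csf1r, 1.54-fold) and 2 lower (Cd68, 2.88-fold, and Lyz2, 2.29-fold) in the variant group than in AKI_mcherry. In that comparison 23.1% of all genes were called. In AKI_mcherry against NC 2 of the 10 were higher (Cd68, 15.5-fold, and Fcgr1, 2.70-fold) and 2 lower (Csf1r, 3.31-fold, and Adgre1, 2.27-fold). There 53.1% of all genes were called. The 5 skeletal muscle markers found summed to at most 2.98 CPM in any library. The 6 collecting duct markers summed to 268 to 376, 307 to 738 and 350 to 516 CPM in the variant group, AKI_mcherry and NC in that order, the 6 glomerular and vessel markers to 252 to 320, 218 to 339 and 259 to 309 CPM, and the 7 liver markers to 299 to 993, 399 to 1040 and 159 to 213 CPM. The liver sums followed the fibrinogen gene Fga, without which the other 6 summed to 173 to 305 CPM in the variant group, 107 to 247 CPM in AKI_mcherry and 145 to 192 CPM in NC. Of the 7 liver markers, 3 were higher and 1 lower in the variant group than in AKI_mcherry, and 2 (Fga and Fgb) were higher and 4 lower in AKI_mcherry than in NC. Markers are named here after their values were seen. The share of counts on mitochondrial genes lay between 10.9% and 13.1% in the variant group, between 13.8% and 17.1% in AKI_mcherry and between 15.3% and 16.9% in NC. The part of these shifts in the results below was not tested, and in whole-kidney RNA fewer cells of a type and less RNA per cell cannot be told apart.

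**Figure D1:**
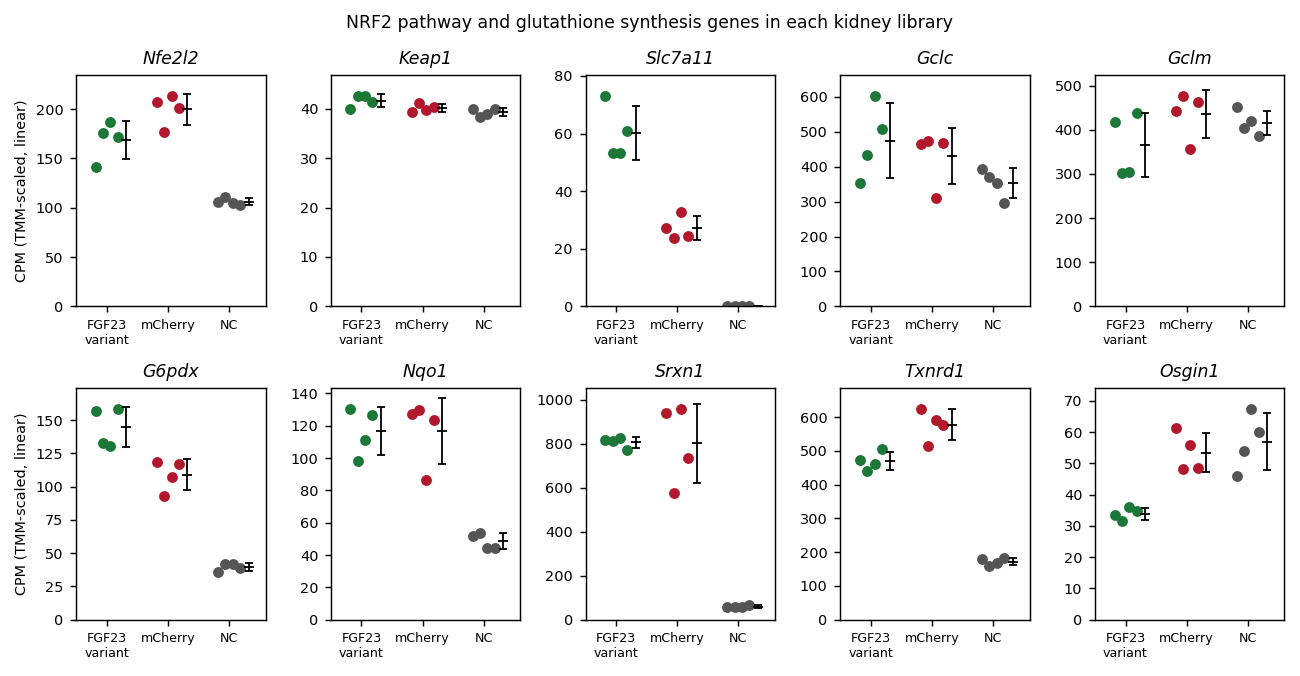
Each point is 1 library, in CPM on a linear axis from 0, with the mean and SD of each group beside it (n = 4 each). Slc7a11 stood at 53.3 to 73.2 CPM in the variant group, 23.8 to 32.8 CPM in AKI_mcherry and near 0 in NC, while Keap1 kept to 38.3 to 42.7 CPM in all 12 libraries.

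Set against NC, the injured AKI_mcherry kidneys had much of the pathway at a higher RNA level. AKI_mcherry carries the names of both the injury and mCherry, and their parts in this comparison cannot be told apart. Of the 10 genes, 6 were higher in AKI_mcherry (Slc7a11, Srxn1, Txnrd1, G6pdx, Nqo1 and Nfe2l2) and 0 were lower, by edgeR's quasi-likelihood test at an adjusted p of 0.05. Across all 18724 genes tested 27.2% were higher and 26.0% lower, 53.1% in all. For the 6 genes every AKI_mcherry library stood above every NC library, as it did for 25.5% of all genes, and the groups did not overlap in either direction for 51.5%. The median log2 fold change of the 10 genes was 1.11, beside -0.00264 over all genes. At an unadjusted p under 0.05 edgeR also gave 0 lower genes, and DESeq2 and limma-voom gave 0 lower at an adjusted p of 0.05. Scaled by library totals alone, the median of all genes moved to 0.12 and the split of all calls from 5088 higher and 4859 lower to 5828 higher and 3958 lower.

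Of the regulators Nfe2l2 was higher and Keap1 did not pass the test. Nfe2l2 (ENSMUSG00000015839), the gene of NRF2 itself, was at 207.5, 176.8, 213.7 and 200.8 CPM in the 4 AKI_mcherry libraries, against 106, 111, 105 and 102 CPM in NC. The lowest injured library was well above the highest NC library, a log2 fold change of 0.93 ± 0.09 (SE, edgeR adjusted p = 1.03e-05), or 1.91-fold. Keap1 (ENSMUSG00000003308) was at 39.3, 41.2, 39.7 and 40.4 CPM in AKI_mcherry, against 40.0, 38.3, 39.0 and 40.0 CPM in NC. The groups overlapped, and the log2 fold change was 0.05 with a 95% interval of -0.12 to 0.22 (edgeR adjusted p = 0.614). Its coefficient of variation over libraries was 2.08% in AKI_mcherry and 2.06% in NC, the smallest of the 10 genes in both groups. The count ratio of Nfe2l2 to Keap1 within a library needs no scaling factor: its log2 was 2.31 ± 0.15 in AKI_mcherry and 1.43 ± 0.08 in NC (SD, n = 4 each), with no overlap. By an exact two-sided permutation test this gave p = 0.0286, the smallest that 70 assignments allow, and 0.0643 after Benjamini-Hochberg adjustment over 9 ratio tests, which does not pass. Under that adjustment a fully separated ratio could not pass by itself, so the adjusted value does not show that the ratios were alike.

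The gene for cystine import stood furthest from NC among the 10. Slc7a11 (ENSMUSG00000027737) encodes xCT, which imports cystine, the oxidised form of the cysteine used for glutathione, in exchange for glutamate. It had 1562, 1188, 2074 and 1637 counts in AKI_mcherry, against 10, 14, 2 and 10 counts in NC. NC was near 0 and every injured library far above it, at 27.1 ± 4.15 CPM in AKI_mcherry and 0.156 ± 0.0896 CPM in NC (SD, n = 4 each). The log2 fold change was 7.46 ± 0.34 (SE, edgeR adjusted p = 1.01e-07), a 175.7-fold difference whose size rests on the low NC counts. Slc3a2, the heavy chain that carries xCT to the membrane, was 1.81-fold higher (edgeR adjusted p = 9.80e-04). The log2 ratio of Slc7a11 to Slc3a2 counts was -3.13 ± 0.28 in AKI_mcherry and -9.91 ± 1.29 in NC (exact two-sided permutation p = 0.0286, adjusted 0.0643 over 9 ratio tests).

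Neither subunit gene of the enzyme that commits cysteine to glutathione passed the test. Gclc (ENSMUSG00000032350), the catalytic subunit of glutamate-cysteine ligase, was at 467, 475, 309 and 469 CPM in AKI_mcherry, against 395, 371, 353 and 296 CPM in NC. Of the injured libraries 3 stood above all NC libraries, while replicate 3 lay within the NC range (log2 0.30 ± 0.16, SE, 95% interval -0.04 to 0.65, edgeR adjusted p = 0.127). Without that library Gclc was higher in AKI_mcherry (log2 0.44, adjusted p = 0.00845, with 0.00845 to 0.299 over the alternatives), and it also passed with limma-voom (log2 0.35, adjusted p = 0.0406) and with library totals alone (log2 0.42, adjusted p = 0.0331). Gclm (ENSMUSG00000028124), the modifier subunit that raises the ligase's affinity for glutamate, was at 443, 478, 356 and 463 CPM in AKI_mcherry, against 451, 404, 421 and 387 CPM in NC. Its groups overlapped (log2 0.09, 95% interval -0.17 to 0.35, edgeR adjusted p = 0.557). Gclm shares its locus with Gm17494 on the other strand, at 17.6 ± 5.50 CPM in AKI_mcherry and 17.7 ± 16.5 CPM in NC, and reads of an antisense pair cannot be told apart unless counting used the strand, which is not stated.

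The genes of the reducing enzymes were higher in AKI_mcherry. Srxn1 (ENSMUSG00000032802), sulfiredoxin, which restores over-oxidised peroxiredoxins, was at 937, 577, 958 and 734 CPM in AKI_mcherry, against 57.9, 55.7, 55.4 and 68.5 CPM in NC. This 13.7-fold difference (log2 3.77 ± 0.17, SE, edgeR adjusted p = 1.05e-07) was the largest after Slc7a11 among the 10, although the injured libraries spread widely, with a coefficient of variation of 22.5%. Txnrd1 (ENSMUSG00000020250), the cytosolic thioredoxin reductase, was at 624, 514, 592 and 577 CPM in AKI_mcherry, against 179.2, 158.6, 167.3 and 182.3 CPM in NC, a log2 fold change of 1.77 ± 0.10 (SE, edgeR adjusted p = 2.64e-07). Nqo1 (ENSMUSG00000003849), the quinone reductase often used as a readout of NRF2 activity, was at 127, 130, 86.3 and 124 CPM in AKI_mcherry, against 51.7, 53.9, 44.1 and 44.5 CPM in NC. It was 2.44-fold higher (edgeR adjusted p = 3.38e-05), with replicate 3 of AKI_mcherry low but still above every NC library.

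G6pdx (ENSMUSG00000031400), which encodes the first enzyme of the pentose phosphate pathway and supplies the NADPH that these reductases spend, was at 119, 92.8, 107 and 117 CPM in AKI_mcherry, against 35.8, 41.9, 41.7 and 39.2 CPM in NC. It was 2.78-fold higher, with no overlap (edgeR adjusted p = 1.45e-06). Its intronless copy G6pd2 had at most 4 counts in any library. Ikbkg overlaps G6pdx on the other strand and stood at 60.0 ± 10.2 CPM in AKI_mcherry and 40.2 ± 1.22 CPM in NC. Osgin1 (ENSMUSG00000074063), an oxidative stress-induced growth inhibitor, was at 61.2, 48.2, 55.8 and 48.6 CPM in AKI_mcherry, against 46.0, 54.1, 67.4 and 60.1 CPM in NC. The groups overlapped, at a log2 fold change of -0.07 (95% interval -0.36 to 0.22, edgeR adjusted p = 0.671), a sign that turned with library totals alone (0.06) and without NC replicate 3 (0.02).

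**Figure D2:**
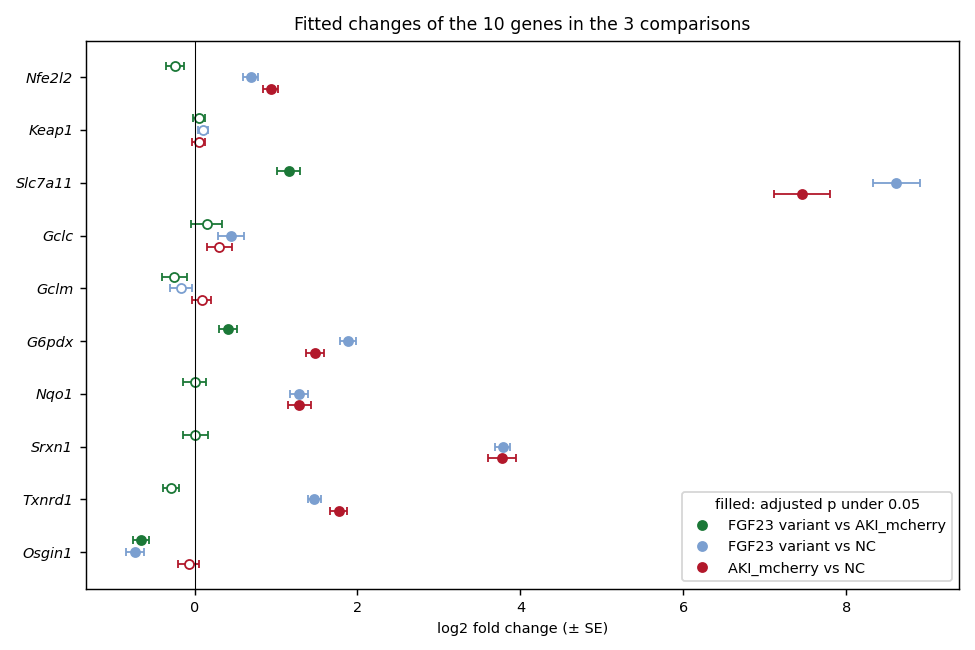
Points are fitted log2 fold changes with their SE for the 10 genes, filled where the edgeR adjusted p was under 0.05 and open otherwise (4 libraries in each group). Against AKI_mcherry the variant group lies near 0 for most genes, apart from Slc7a11 at 1.15, G6pdx at 0.41 and Osgin1 at -0.66.

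The variant group against AKI_mcherry asks what differed in the injured kidney when the hormone variant was overexpressed. Slc7a11 and G6pdx were higher and Osgin1 lower in the variant group, and the other 7 genes did not pass the edgeR test. Counted against all 18824 genes tested, where 11.7% were higher and 11.4% lower, 23.1% in all, the 2 higher and 1 lower of 10 genes are near the background share. The groups did not overlap for 4 of the 10 genes, 2 higher and 2 lower, and for 28.4% of all genes, 14.5% higher and 13.9% lower. The median log2 fold change was 0.00543 for the 10 genes and 0.00837 for all genes. Scaled by library totals alone, the median of all genes moved to 0.21 and the split of all calls from 2199 higher and 2148 lower to 4060 higher and 1035 lower.

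Slc7a11 was at 73.2, 53.3, 53.3 and 60.8 CPM in the variant group, against 27.4, 23.8, 32.8 and 24.3 CPM in AKI_mcherry. Every library of the variant group was above every AKI_mcherry library, a log2 fold change of 1.15 ± 0.14 (SE, edgeR adjusted p = 8.27e-04), or 2.22-fold. The call held under all 16 alternatives, with log2 values of 1.05 to 1.35. Its partner gene Slc3a2 was 1.67-fold higher (395 ± 31.0 CPM in the variant group and 238 ± 35.6 CPM in AKI_mcherry, SD, n = 4 each, edgeR adjusted p = 0.00340). The log2 ratio of Slc7a11 to Slc3a2 counts was -2.73 ± 0.20 in the variant group and -3.13 ± 0.28 in AKI_mcherry, with overlapping libraries (exact two-sided permutation p = 0.0571, adjusted 0.0857 over 9 ratio tests).

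G6pdx was at 157, 133, 130 and 158 CPM in the variant group, against 119, 92.8, 107 and 117 CPM in AKI_mcherry. The groups did not overlap, and G6pdx was 1.33-fold higher (log2 0.41 ± 0.11, SE, edgeR adjusted p = 0.0250). The call was lost without some single libraries. The edgeR adjusted p was 0.0737 without replicate 1 and 0.0738 without replicate 5 of the variant group. Without replicate 3 of AKI_mcherry it was 0.0534. The log2 fold change stayed between 0.35 and 0.46 with 1 library left out. Ikbkg, on the other strand, was at 45.1 ± 1.70 CPM in the variant group and 60.0 ± 10.2 CPM in AKI_mcherry, lower where G6pdx was higher. Osgin1 was at 33.3, 31.5, 36.0 and 34.7 CPM in the variant group, against 61.2, 48.2, 55.8 and 48.6 CPM in AKI_mcherry. All 4 libraries of the variant group lay below all others of the series, and Osgin1 was 1.57-fold lower than in AKI_mcherry (log2 -0.66 ± 0.10, SE, edgeR adjusted p = 0.00249), a call that held under all 16 alternatives.

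Srxn1 and Nqo1 had fitted differences close to 0 between the injured groups. Srxn1 was at 817, 810, 826 and 770 CPM in the variant group, inside the AKI_mcherry range of 577 to 958 CPM (log2 0.01, 95% interval -0.33 to 0.35, edgeR adjusted p = 0.969). Its libraries were closer together in the variant group, with a coefficient of variation of 3.03% against 22.5% in AKI_mcherry, a difference in spread that was not tested. Nqo1 was at 130, 98.2, 111 and 127 CPM in the variant group, against 127, 130, 86.3 and 124 CPM in AKI_mcherry (log2 0.00096, 95% interval -0.32 to 0.32, edgeR adjusted p = 0.997). The sign of both turned under some alternatives. Txnrd1 was at 472, 442, 461 and 507 CPM in the variant group, against 624, 514, 592 and 577 CPM in AKI_mcherry. Its groups did not overlap, and it missed the threshold (log2 -0.29 ± 0.10, SE, edgeR adjusted p = 0.0536). Txnrd1 passed under 6 of 16 alternatives, among them DESeq2 (adjusted p = 0.0255, 0.0180 to 0.585 over the alternatives) and the fit without replicate 2 of AKI_mcherry (0.0294).

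Nfe2l2 was at 141.7, 175.7, 186.6 and 171.4 CPM in the variant group, against 207.5, 176.8, 213.7 and 200.8 CPM in AKI_mcherry. The groups overlapped at 1 library of AKI_mcherry (log2 -0.24, 95% interval -0.48 to 0.00, edgeR adjusted p = 0.136). Keap1 was at 40.0, 42.6, 42.7 and 41.5 CPM in the variant group and 39.3 to 41.2 CPM in AKI_mcherry (log2 0.06, 95% interval -0.11 to 0.22, edgeR adjusted p = 0.614), and passed as higher with library totals alone (log2 0.26, adjusted p = 0.0406). The log2 ratio of Nfe2l2 to Keap1 was 2.01 ± 0.13 in the variant group and 2.31 ± 0.15 in AKI_mcherry, with overlap (SD, n = 4 each, exact two-sided permutation p = 0.0571, adjusted 0.0857 over 9 ratio tests).

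The subunit genes of glutamate-cysteine ligase spread widely within the variant group. Gclc was at 354, 434, 604 and 508 CPM in the variant group, against 467, 475, 309 and 469 CPM in AKI_mcherry (log2 0.15, 95% interval -0.27 to 0.56, edgeR adjusted p = 0.600). Gclm was at 419, 302, 305 and 437 CPM in the variant group, against 443, 478, 356 and 463 CPM in AKI_mcherry (log2 -0.25, 95% interval -0.59 to 0.09, edgeR adjusted p = 0.265). Replicate 1 of the variant group had the lowest Gclc with a high Gclm, and replicate 3 the highest Gclc with a low Gclm. Their count ratio, Gclm to Gclc, was 1.18, 0.694, 0.504 and 0.860 in the variant group, 0.950, 1.00, 1.15 and 0.988 in AKI_mcherry and 1.14, 1.09, 1.19 and 1.31 in NC. Its log2 averaged -0.37 ± 0.52 in the variant group and 0.03 ± 0.12 in AKI_mcherry, with overlap (exact two-sided permutation p = 0.229, also 0.229 after adjustment over 9 ratio tests), and in AKI_mcherry against NC, 0.24 ± 0.11 in NC, it also overlapped (exact p = 0.0857, adjusted 0.0964). Within the variant group Nqo1, G6pdx, Slc7a11 and Txnrd1 stood higher in replicates 1 and 5 than in replicates 2 and 3, as Gclm did. Nfe2l2 and Keap1 went the other way, and Gclc, Srxn1 and Osgin1 did not split like this. The split was seen in the values and was not tested.

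**Figure D3:**
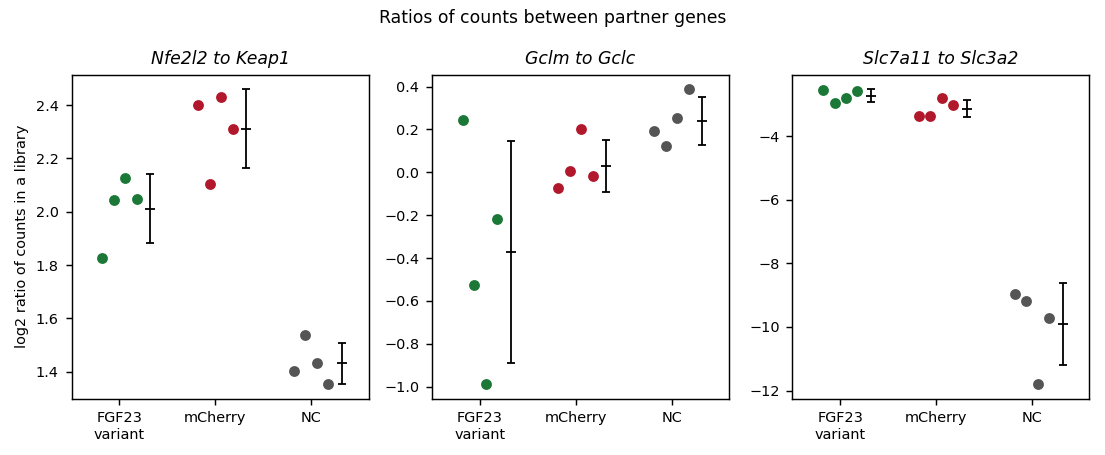
Points are log2 ratios of counts in each library, with the mean and SD of each group (n = 4 each, axes do not start at 0). Nfe2l2 to Keap1 is above the NC range in all 8 injured libraries, Gclm to Gclc spreads from -0.99 to 0.24 in the variant group, and Slc7a11 to Slc3a2 lies far above NC in both injured groups.

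The comparison of the variant group with NC shares its libraries with those above. Here 7 of 10 genes were higher and 1 lower, where 21.7% of all 19005 genes were higher and 20.6% lower, 42.3% in all. The groups did not overlap for 7 of the 10 genes, 6 higher and 1 lower, and for 41.6% of all genes, 20.4% higher and 21.1% lower. The median log2 fold change was 0.99 for the 10 genes and 0.0109 for all genes. Scaled by library totals alone, the median of all genes moved to 0.34 and the split of calls from 4123 higher and 3912 lower to 7829 higher and 2096 lower. Slc7a11 was at 60.1 ± 9.37 CPM in the variant group and 0.156 ± 0.0896 CPM in NC (log2 8.61 ± 0.29, SE, edgeR adjusted p = 6.38e-08). Srxn1 was 13.7-fold, G6pdx 3.69-fold, Txnrd1 2.77-fold, Nqo1 2.43-fold and Nfe2l2 1.61-fold higher than in NC, each without overlap (edgeR adjusted p of 3.25e-08, 5.78e-07, 7.87e-07, 1.24e-05 and 1.86e-04 in that order).

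Osgin1 was the 1 gene lower than NC, at 33.9 ± 1.89 CPM in the variant group and 56.9 ± 9.07 CPM in NC (SD, n = 4 each, log2 -0.73 ± 0.12, SE, edgeR adjusted p = 5.37e-04). Gclc passed as 1.36-fold higher although its groups overlapped (log2 0.44 ± 0.16, SE, edgeR adjusted p = 0.0433, with 0.00211 to 0.325 over the alternatives). It passed under 7 of 16 alternatives and had an adjusted p of 0.121 without replicate 3 of the variant group, 0.0537 without replicate 2 and 0.0984 without replicate 5 of that group, and of 0.0754, 0.0849 and 0.121 without NC replicates 2, 3 and 4. Gclm was at 365 ± 72.4 CPM in the variant group and 416 ± 27.1 CPM in NC (edgeR adjusted p = 0.358), a log2 fold change of -0.17 that became 0.17 with library totals alone. Keap1 was at 41.7 ± 1.26 CPM in the variant group and 39.3 ± 0.810 CPM in NC (edgeR adjusted p = 0.245) and was higher with library totals alone (log2 0.44, adjusted p = 2.87e-04). The log2 ratio of Nfe2l2 to Keap1 was 2.01 ± 0.13 in the variant group and 1.43 ± 0.08 in NC, and that of Slc7a11 to Slc3a2 -2.73 ± 0.20 in the variant group and -9.91 ± 1.29 in NC (exact two-sided permutation p = 0.0286 each, adjusted 0.0643 over 9 ratio tests). For Gclm to Gclc it was -0.37 ± 0.52 in the variant group and 0.24 ± 0.11 in NC (exact two-sided permutation p = 0.0857, adjusted 0.0964).

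The order of the 10 genes by level per gene length, read from the deposited FPKM, differed between groups. Srxn1 was first in the variant group at 299 ± 7.84 FPKM and first in AKI_mcherry at 259 ± 68.2 FPKM, and seventh in NC at 17.3 ± 1.51 FPKM (SD, n = 4 each). In the variant group Gclc followed at 132 FPKM, then Nqo1 (78.5), Txnrd1 (69.4), Gclm (60.8), G6pdx (49.1) and Nfe2l2 (46.5), where each neighbour from Nqo1 to Nfe2l2 overlapped the next, and then Osgin1 (13.2), Keap1 (9.27) and Slc7a11 (4.52) without overlap. In AKI_mcherry Gclc at 103 FPKM, Txnrd1 (73.8), Nqo1 (67.6) and Gclm (62.3) overlapped in turn, and Nfe2l2 (47.7), G6pdx (32.1), Osgin1 (18.1), Keap1 (7.72) and Slc7a11 (1.77) did not. NC was led by Gclc at 77.3 and Gclm at 54.4 FPKM, followed by Nqo1 (25.7), Nfe2l2 (23.0), Txnrd1 (19.9), Osgin1 (17.5), Srxn1 (17.3), G6pdx (10.6) and Keap1 (6.89), with overlap only between Nqo1 and Nfe2l2, Txnrd1 and Osgin1, and Osgin1 and Srxn1. Slc7a11 was last in all 3 groups, listed at 0.00 to 0.01 FPKM in NC.

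The genes closest in pattern were those with the smallest root mean square difference of centred log2(CPM + 1) over the 12 libraries, among 11034 genes with a mean of at least 5 CPM. For Slc7a11 they were Ptprn (0.34), Fosl1 (0.38), an AP-1 subunit, and Atf3 (0.55), a stress-induced transcription factor. Their means in that order were 44.4, 32.9 and 51.8 CPM in the variant group and 31.0, 25.5 and 51.5 CPM in AKI_mcherry. In NC they were 0.238, 0 and 1.11 CPM. Closeness over all 12 libraries therefore need not mean a like difference between the injured groups. For G6pdx the closest genes were Slc16a1 (0.13), a lactate transporter, Ttll7 (0.16) and Rdh11 (0.16). For Nqo1 they were Gars (0.15), the glycyl-tRNA synthetase, Ncl (0.16), which encodes nucleolin, and Esd (0.17). For Osgin1 they were Ppp1r9a (0.14), Trpv4 (0.14), a cation channel, and Esrp2 (0.15), an epithelial splicing factor. Mapre1, Arpin and Ppp2r5b were closest to Nfe2l2 (0.08 to 0.09). Ppp5c, Tex261 and Pdzd11 were closest to Keap1 (0.04 to 0.06), the smallest distances of the 10 members. Eaf1, Tmem43 and Homer3 were closest to Txnrd1 (0.11 to 0.12). Ppcs, Fam120a and Opa3 were closest to Gclm (0.13 to 0.14). Sco2, Rpf1 and Crnkl1 were closest to Gclc (0.17 to 0.19). H2-T-ps (0.23) and Steap1 (0.32) were the first and second closest to Srxn1.

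**Figure D4:**
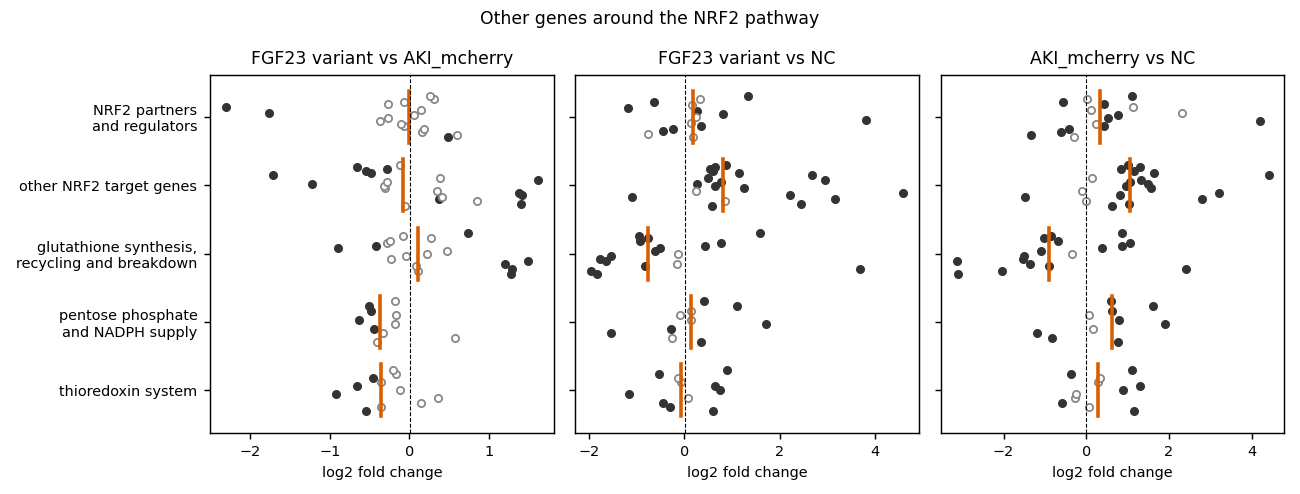
Each point is a gene of 5 lists around the pathway, by its log2 fold change, filled where the edgeR adjusted p was under 0.05. Orange bars are list medians and the dashed line is the median of all genes. In AKI_mcherry against NC the other NRF2 targets have their median at 1.05 and the glutathione list at -0.90.

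Genes around the 10 were read from 5 lists, with the shares of all genes as their background. In AKI_mcherry against NC these were 27.2% higher and 26.0% lower. In the variant group they were 11.7% and 11.4% against AKI_mcherry, and 21.7% and 20.6% against NC. The list of other NRF2 target genes shares Gsr with the glutathione list and Txn1 and Prdx1 with the thioredoxin list. These genes are counted in both. Of 20 other NRF2 target genes, 16 were higher and 1 lower in AKI_mcherry than in NC. The list median was 1.05 on the log2 scale. Hmox1, the heme-degrading oxygenase, was 21.3-fold higher (668 ± 187 CPM in AKI_mcherry and 31.8 ± 2.91 CPM in NC), and Cbr3, a carbonyl reductase, 9.29-fold higher. Catalase (Cat) was the lower one, 2.81-fold. Between the injured groups these 20 genes split into 5 higher and 6 lower in the variant group than in AKI_mcherry, with a list median of -0.08. Hmox1 was 3.29-fold lower (202 ± 33.0 CPM in the variant group and 668 ± 187 CPM in AKI_mcherry, edgeR adjusted p = 8.68e-04), and the ferritin light chain gene Ftl1 2.34-fold lower. Gsta4, a glutathione transferase, was 3.07-fold higher (186 ± 32.2 CPM in the variant group and 60.9 ± 17.4 CPM in AKI_mcherry, edgeR adjusted p = 7.98e-04), and the carbonyl reductase gene Cbr1 2.66-fold higher. With library totals as the scale, 8 were higher and 4 lower and the median was 0.12. Ferritin and peroxiredoxin genes have processed pseudogenes and Gsta4 has relatives of similar sequence, so counting could divide their reads. Against NC 17 of the 20 were higher and 1 lower in the variant group, led by Cbr3 (24.2-fold) and Blvrb, biliverdin reductase B (9.01-fold), with Cat 2.13-fold lower.

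Among 17 genes of glutathione synthesis, recycling and breakdown, 5 were higher and 11 lower in AKI_mcherry than in NC, and the list median was -0.90. The lower ones included Gss, which completes glutathione and was named outside the rule (254 ± 47.5 CPM in AKI_mcherry and 412 ± 53.0 CPM in NC), and the peptidases of the proximal brush border Dpep1 (8.81-fold) and Anpep (8.53-fold), in a comparison where 10 of 10 proximal tubule markers were lower, whose part in this was not tested. Gsr, glutathione reductase, was 2.08-fold higher, and Chac1, which breaks down glutathione inside the cell, 5.32-fold higher. Against AKI_mcherry 5 were higher and 2 lower in the variant group, with a median of 0.10. Chac1 was 2.44-fold higher (22.8 ± 5.56 CPM in the variant group and 9.35 ± 1.81 CPM in AKI_mcherry, edgeR adjusted p = 0.00273) and Dpep1 2.82-fold higher, in a comparison where 5 of 10 proximal tubule markers were higher and 1 lower, whose part in this was not tested. Glutaredoxin (Glrx) was 1.86-fold lower. Against NC 4 were higher and 11 lower in the variant group, among them Chac1 (13.0-fold higher), Slc3a2 (3.01-fold higher), Cbs, the first enzyme of transsulfuration (3.87-fold lower), and Anpep (3.53-fold lower).

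Of 11 genes of the pentose phosphate pathway and NADPH supply, 10 could be matched to 1 gene each. Of these 6 were higher and 2 lower in AKI_mcherry than in NC, Pgd, 6-phosphogluconate dehydrogenase, by 3.75-fold and Taldo1, transaldolase, by 3.07-fold, while Me1, malic enzyme, was 2.29-fold and Idh1, cytosolic isocitrate dehydrogenase, 1.77-fold lower. Against AKI_mcherry 4 of the 10 were lower in the variant group and the other 6 did not pass, with Taldo1 1.43-fold lower (457 ± 21.2 CPM in the variant group and 653 ± 36.2 CPM in AKI_mcherry, adjusted p = 0.00425) and Pgls 1.55-fold lower (adjusted p = 0.0270). The Pgls call was lost with an adjusted p of 0.0562 to 0.0798 without replicate 1, 2 or 5 of the variant group or replicate 2 or 3 of AKI_mcherry, and with library totals alone (adjusted p = 0.0711). G6pdx, at the head of the same pathway, was higher in that comparison. The median of the list was -0.37, and with library totals alone 1 was higher and 1 lower. The variant group against NC had 4 higher and 2 lower, with Pgd 3.31-fold and Taldo1 2.15-fold higher, Me1 2.89-fold lower, and Nadk 1.22-fold lower, a call that was lost and turned with library totals alone.

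Of 11 thioredoxin system genes, 4 were higher and 2 lower in AKI_mcherry than in NC. The share called in either direction was near that of all genes, 53.1%. Txn1, cytosolic thioredoxin, was 2.47-fold and Prdx1 2.22-fold higher, and the mitochondrial genes Txnrd2 and Prdx3 1.28-fold and 1.51-fold lower. Against AKI_mcherry 4 of the 11 were lower in the variant group and the other 7 did not pass, with Txn1 at 296 ± 27.1 CPM in the variant group and 466 ± 52.0 CPM in AKI_mcherry (adjusted p = 0.00379) and Prdx5 1.89-fold lower. The median of the list was -0.36, and with library totals alone 2 were higher and 3 lower. The variant group against NC had 4 higher and 4 lower, Txnrd3 1.87-fold and Prdx6 1.69-fold higher, Prdx5 2.24-fold and Txnrd2 1.44-fold lower, with a list median of -0.07 that became 0.26 with library totals alone. Txnrd2 lost its call with library totals alone in both comparisons with NC.

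Of 16 partners and regulators of NRF2, 6 were higher and 4 lower in AKI_mcherry than in NC, beside 27.2% and 26.0% of all genes. Maff, a small MAF partner, was 18.3-fold higher (37.5 ± 5.73 CPM in AKI_mcherry and 2.08 ± 0.919 CPM in NC), and Sqstm1, which encodes p62, a protein that sequesters KEAP1, 2.14-fold higher. Btrc, of the other ubiquitin ligase that targets NRF2, was 1.52-fold and the retinoid receptor gene Rxra 1.47-fold lower. Against AKI_mcherry 1 was higher and 2 were lower in the variant group, beside 11.7% and 11.4% of all genes. The list median of -0.0033 became 0.20 with library totals alone, where 6 were higher and 1 lower. The higher one was Bach1, a heme-binding repressor of antioxidant response elements, at 30.2 ± 2.95 CPM in the variant group and 21.6 ± 3.34 CPM in AKI_mcherry (1.40-fold, edgeR adjusted p = 0.0244). Its call was lost with an adjusted p of 0.0513 to 0.0698 without replicate 1, 2 or 5 of the variant group or replicate 3 of AKI_mcherry. The lower ones, named after their values were seen, were Nfe2l3 (0.701 ± 0.326 CPM in the variant group and 3.48 ± 3.20 CPM in AKI_mcherry) and Nfe2 (0.137 ± 0.0761 CPM in the variant group and 0.469 ± 0.176 CPM in AKI_mcherry). Against NC 5 of the 15 tested were higher and 4 lower in the variant group, Maff 14.1-fold and Sqstm1 2.54-fold higher, Rxra 1.55-fold and Btrc 1.37-fold lower, the last lost with library totals alone.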

How the data were processed

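Poly(A) RNA from kidney was sequenced as read pairs from libraries made with dUTP, which keeps the strand, per the labels' protocols. Per the submitters' processing notes fastp, StringTie, edgeR and build GRCm39 were used. Their versions, the aligner, the annotation and whether counting used the strand were not stated. Per the file headers the deposited table holds counts and FPKM values (scaled by the authors for gene length and depth) of each gene in each library. A supplied annotation gave symbols to 31942 of 32047 identifiers.

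Counts were tested with edgeR 4.0.16 in R 4.3.3 (filterByExpr, TMM, quasi-likelihood F test, Benjamini-Hochberg at 0.05 over all genes), each comparison on its own 8 libraries, since the labels state no design. SE is the log2 fold change over the square root of F, and 95% intervals use the t distribution. CPM use TMM factors over all 12 libraries (0.879 to 1.15). FPKM served only to compare levels between genes. Ratios used counts plus 0.5. A count of 4 was found 11995 times, against 5847 times for 3 and 3638 times for 5, so low counts may not be single reads. The gene test, the permutation test, the pattern search and the motif search were tested on simulated data. There the gene test missed most changes planted at 1.5-fold, with 200 changed genes, far fewer than were called in these data. A gene that did not pass may still differ. For the members the 95% intervals, where given, show by how much.

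Members, lists and tests were chosen with earlier results of these data known. Beside the members and Slc3a2, the partner of Slc7a11 in the ratio, list genes named are up to 2 per direction and comparison with the largest change among those called at a mean of at least 5 CPM. Nnt, with 2 identifiers, was left out. Some genes that these rules name are not reported here. Alternatives were RLE factors, library totals alone, no filter, a minimum of 5 CPM, DESeq2 1.42.0, voom weights in limma 3.58.1, a joint fit of the 12 libraries, a block for the replicate number, a ratio pseudocount of 5 counts, and each library left out. Files of single samples were not used.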

Additional observations from a re-analysis of the deposited data

Results flagged for a closer look

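In AKI_mcherry, replicate 3 stood apart from the other 3 libraries for 2 of the 10 genes by the gap to its nearest neighbour over the range of the group, out of 30 gene and group combinations examined, of which chance flags about 1 in 20. Gclc was at 309 CPM there, against 467 to 475 CPM in the others, and Nqo1 at 86.3 CPM, against 124 to 130 CPM. In the same library Gclm was also the lowest of the group, at 356 CPM. Slc7a11, Srxn1 and Nfe2l2 were the highest of the group there, at 32.8, 958 and 213.7 CPM.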

How the results depend on the processing

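Of 160 values of the 10 genes under the alternatives in each comparison, 155 kept direction and call in AKI_mcherry against NC, 139 in the variant group against AKI_mcherry and 149 in the variant group against NC. The cause of the changes below was not tested. In AKI_mcherry against NC the log2 fold change of Osgin1 became 0.0554 with library totals alone and ranged from -0.163 to 0.0214 when 1 library was left out. In the variant group against AKI_mcherry that of Nqo1 became -0.00465 with RLE factors, -0.0471 with limma-voom and -0.00149 in the joint fit, and -0.120 to 0.0751 with 1 library left out. That of Srxn1 became -0.00276 with limma-voom and -0.116 to 0.106 with 1 library left out. Against NC that of Gclm in the variant group became 0.168 with library totals alone. With RLE factors, a minimum of 5 CPM, DESeq2, limma-voom and the joint fit, 2 of the 10 genes were lower in the variant group than in AKI_mcherry, with Txnrd1 as the second. Leaving out 1 library gave 1 to 2 higher and 1 to 2 lower. Over all genes that comparison had 4060 higher and 1035 lower with library totals alone, and 1252 to 2088 higher and 1158 to 2171 lower with 1 library left out. The lowest counts came without replicate 1 of the variant group, and without its replicate 5 they were 1439 and 1279, and without its replicate 2 they were 1494 and 1359. The variant group against NC had 7829 higher and 2096 lower genes with library totals alone.

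Whether replicate numbers pair the libraries could not be settled from 3 or 4 shared numbers per comparison. Correlations of same-numbered deviations were -0.389 to 0.101 in AKI_mcherry against NC and -0.225 to -0.0993 in the variant group against NC. In both of these 0 libraries correlated best with their own number. In the variant group against AKI_mcherry the correlations were 0.0813 to 0.231, and 2 of 3 libraries correlated best with their own number. With the replicate block the variant group had 984 higher and 803 lower genes and 1 higher member than AKI_mcherry, where edgeR's adjusted p was 0.0791 for G6pdx, 0.0515 for Taldo1, 0.0757 for Dpep1 and 0.0986 for Bach1, and 2388 higher and 2335 lower genes than NC, where it was 0.106 for Btrc and 0.0880 for Nadk. These 6 genes had passed without the block. With 1 library left out the smallest exact p of a ratio is 0.0571, so no ratio could pass. The difference in log2 ratio was then 0.840 to 0.949 for Nfe2l2 to Keap1 and 6.15 to 7.10 for Slc7a11 to Slc3a2 in AKI_mcherry against NC, and 0.541 to 0.642 and 6.56 to 7.51 in the variant group against NC. With 2 to 14 counts per NC library, the size of the Slc7a11 difference from NC is limited by depth.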
